A study of Mus musculus with 4 samples.

Results

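Open chromatin intervals of the double-deletion library that had no counterpart in the WT library but did have one in another chondrocyte library were examined here. They were chosen as the deletion intervals on the autosomes that overlapped no WT interval and overlapped at least 1 interval of Cho replicate 1 by 1 bp or more. Of 165538 autosomal deletion intervals, 22800 met both conditions, which is 13.8% of them. The values that chose them are the calls in these 3 lists, so their absence from WT and their presence in Cho replicate 1 are given as a description and were not tested. They are called WT-absent intervals below.

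ATAC-Seq, which marks accessible DNA by the sites where the Tn5 transposase inserts adapters, was performed on primary chondrocytes of mouse rib cartilage. Cells came from newborn mice and were used at early passage. The deletion library came from mice homozygous for the CRISPR/Cas9 removal of both E160 and E308, a pair of elements upstream of Sox9, made in C57BL/6J embryos, and the WT library from their WT littermates. The Cho libraries, replicates 1 and 2, are labelled as chondrocytes with no genotype. Mice were used regardless of sex, and whether a library pooled several animals was not given in the sources used here. WT and the deletion had 1 library each, so every comparison below is between libraries and not between genotypes, and a 95% interval covers counting error only.

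Accessible sites fall into broad kinds. Promoters are open in most cell types, distal enhancers are opened by transcription factors in particular cells, and CTCF, which organises chromatin loops, holds open a set of sites that varies little between tissues. AP-1, a dimer of Fos and Jun family proteins, binds a short palindrome, acts mostly at distal enhancers and is induced by growth factors, stress and the move of cells into culture.

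The libraries differed in depth. The background pileup, the number of fragments expected by chance at a position, was 0.361 in WT and 0.626 in the deletion, with 88965 and 165538 autosomal intervals. The smallest summit pileup called was 4 fragments in WT and in the deletion and 6 in Cho replicate 1. The labelled cell type was checked at start sites of cartilage genes. A summit lay within 1 kb of the start in 18 of 22 cartilage genes in WT and in the deletion and in 19 of 22 in Cho replicate 2, but in 11 of 22 in Cho replicate 1. Over all protein-coding genes the shares were 59.7%, 65.5%, 63.6% and 56.0%. Acan, the cartilage proteoglycan, and the collagen genes Col9a1 and Col11a2 were among those without an interval at the start in Cho replicate 1. Of 15 AP-1 and stress genes, 14 had one in Cho replicate 1, all but Jund, and 14 in WT, all but Mmp3. In the deletion and in Cho replicate 2, 13 had one. Of 12 skeletal muscle genes, only Pax3 had one in Cho replicate 1 and only Myod1 in WT, while 6 had one in the deletion and 4 in Cho replicate 2. The part that these differences between libraries play in the results below was not tested.

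Before the values, 7 of the strongest WT-absent intervals are shown as the summit with 50 bases on either side, on the plus strand of NCBIM37 (mm9). Of the 10 with the highest fold enrichment in the deletion, all 6 that hold an AP-1 motif and 1 of the 4 that do not are shown. The set thus displays AP-1 more often than the 10 do. An interval near Gm11077 with 2 AP-1 motifs tied with the last of the 10, at 16.6, and is not counted among them. Capitals mark the AP-1 motif TGANTCA, which reads the same on both strands. The first 6 hold it and the last does not.
Vash2 upstream (chr1:192822090-192822190): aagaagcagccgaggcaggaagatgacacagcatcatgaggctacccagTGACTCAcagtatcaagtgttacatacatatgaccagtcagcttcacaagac
Rgmb upstream (chr17:16477270-16477370): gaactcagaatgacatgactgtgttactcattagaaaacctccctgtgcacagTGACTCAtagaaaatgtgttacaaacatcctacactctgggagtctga
Cdh4 intron (chr2:179572072-179572172): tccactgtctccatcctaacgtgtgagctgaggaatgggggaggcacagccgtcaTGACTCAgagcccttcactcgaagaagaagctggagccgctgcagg
Ifng flank (chr10:117907766-117907866): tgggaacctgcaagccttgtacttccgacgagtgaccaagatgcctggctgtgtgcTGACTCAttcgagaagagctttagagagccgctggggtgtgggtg
Gm10842 flank (chr11:105021408-105021508): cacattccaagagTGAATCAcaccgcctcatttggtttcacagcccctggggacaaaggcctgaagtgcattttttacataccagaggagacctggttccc
Nr2f2 flank (chr7:77350934-77351034): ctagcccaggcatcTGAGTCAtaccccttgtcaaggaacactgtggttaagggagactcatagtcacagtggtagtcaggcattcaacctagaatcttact
Ino80 intron (chr2:119214122-119214222): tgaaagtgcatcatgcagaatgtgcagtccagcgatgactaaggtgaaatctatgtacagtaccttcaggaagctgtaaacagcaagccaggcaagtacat

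The middle of the motif lay 2 bp from the summit upstream of Vash2, which encodes an enzyme that trims tubulin, 6 bp from it upstream of Rgmb, a BMP co-receptor gene, and 8 bp from it in the intron of Cdh4, a cadherin gene. It lay 9 bp from the summit near Ifng, the interferon gamma gene, but 34 bp before it near Gm10842 and 33 bp before it near Nr2f2, by plus strand position.

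Fold enrichment, the deposited column 7, is the ratio of summit pileup to local background with 1 added to each. In WT-absent intervals it ran from 1.73 to 17.8 in the deletion with a median of 5.22, and the summit pileup ran from 4 to 54 fragments with a median of 11. Deletion intervals that overlapped both WT and Cho replicate 1, 48591 in all and called shared below, had a median fold enrichment of 10.9. Those that overlapped neither list, 60746, had a median of 4.92. A further 33401 overlapped WT but not Cho replicate 1. In Cho replicate 1 the intervals overlapped by WT-absent ones had a fold enrichment of 2.96 to 108 with a median of 6.33. Their upper quartile in the deletion, 6.76, lay below the shared median. Their median width was 136 bp, against 323 bp.

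Absence from WT followed the deletion pileup. Of all autosomal deletion intervals, 50.5% overlapped no WT interval and 43.1% overlapped Cho replicate 1. At a pileup of 4 to 5 fragments 96.7% of the intervals with a Cho replicate 1 overlap had no WT interval, at 10 to 14 fragments 63.2%, at 15 to 19 fragments 36.8%, at 20 to 29 fragments 12.9%, and at 50 or more 0.0411%, which is 3 intervals. Deletion intervals without a Cho replicate 1 overlap gave 95.3%, 59.5%, 32.0%, 12.7% and 0.4% in the same classes. When each WT-absent summit was scaled to the WT background, the median was 6.33 fragments, and 13.0% (12.6 to 13.5) fell below the smallest pileup called in WT. Over all deletion intervals 13.8% did, over shared ones 0.292% and over those in neither list 30.5%. Scaled by tag depth instead of background, 22.0% of WT-absent intervals fell below it. Both series use the calls that chose the intervals and are a description.

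**Figure D1:**
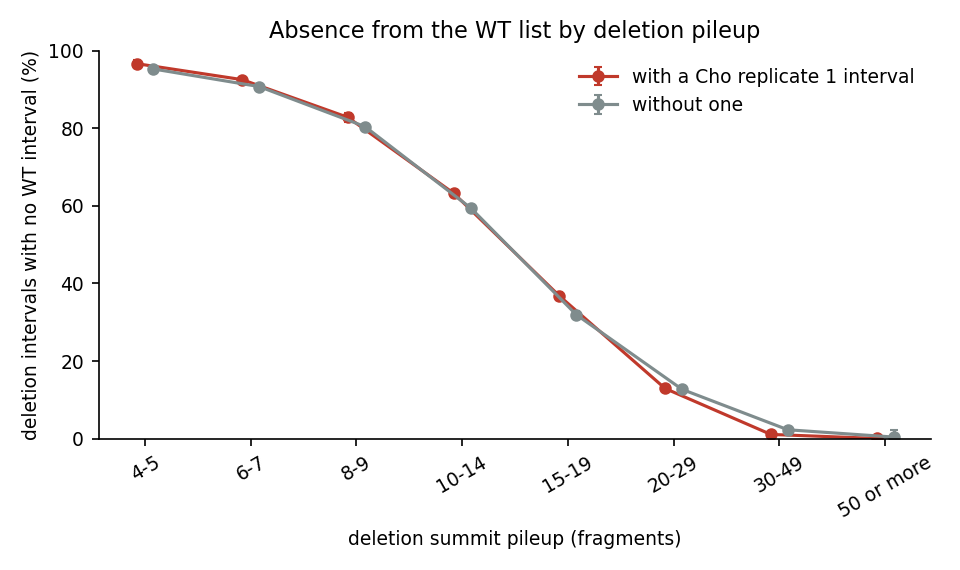
Share of autosomal deletion intervals that overlapped no WT interval (%, y axis) by the deletion summit pileup in fragments (x axis), for intervals with and without a Cho replicate 1 overlap. Points are shares and bars 95% exact binomial intervals; both lines fall from over 95% at 4 to 5 fragments to under 1% at 50 or more.

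Of the 83546 deletion intervals with no WT interval, 27.3% (27.0 to 27.6) overlapped Cho replicate 1, and of the 81992 with one, 59.3% (58.9 to 59.6) did. The Cho replicate 1 intervals covered 1.59% of the autosomal bases.

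WT-absent intervals, like deletion intervals as a whole, were mostly distal. The start of the nearest protein-coding gene lay at a median of 34.1 kb from the summit, with quartiles of 6.29 and 105 kb, against 30.9 kb for all deletion intervals, 17.1 kb for shared intervals and 39.2 kb for intervals in neither list. Summits within 1 kb of a start made up 14.4% (14.0 to 14.9), against 12.9% of all deletion intervals, 27.7% of shared intervals and 4.76% of those in neither list. With Cho replicate 2 in place of Cho replicate 1 in the choice the order against neither list turned, to 5.47% and 9.47%. That choice asked for a summit within 150 bp instead of an overlap. With a summit within 150 bp, the difference from neither list at equal fold enrichment was -1.59 percentage points with Cho replicate 1. It was -5.44 with Cho replicate 2. At equal fold enrichment the order thus turned under that rule with either library. Shares before pairing were not compared under it for Cho replicate 1. The windows within 1 kb of a start cover 1.69% of the autosomal bases. At the far end, 25.9% lay over 100 kb from any start, against 22.8% of all deletion intervals and 16.8% of shared ones. By place, 7.80% of WT-absent summits lay in exons, 49.1% in introns and 43.1% between genes, and shared summits divided into 14.0%, 40.4% and 45.6%. Among summits over 1 kb from a start the exon shares were 4.13% and 6.04% and the intron shares 49.4% and 48.7%, so the difference in introns lay mostly near starts.

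Because shared intervals were stronger, WT-absent intervals were paired 1 to 1 with shared intervals whose deletion fold enrichment differed by no more than 0.05, which gave 12309 pairs. Within pairs, 12.8% of WT-absent summits lay within 1 kb of a start, against 25.9% of shared ones, and the median distances were 35.2 and 12.4 kb. The median GC content within 100 bp of the summit was 47.8% in the WT-absent and 52.7% in the shared intervals of the pairs. The order of the promoter shares turned when intervals were paired on summit pileup instead, over 11714 pairs: 20.5% of WT-absent and 14.2% of shared summits then lay within 1 kb of a start. The median distances then were 20.3 and 34.7 kb and the GC contents 49.3% and 48.8%. At equal fold enrichment the shared intervals had the higher pileups, with medians of 19 and 12 fragments. Whether WT-absent intervals hold fewer promoters than shared ones therefore depends on which measure of strength is held equal.

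Of 9 transcription factor motifs searched on both strands, AP-1 differed most, in percentage points, between WT-absent intervals and their shared partners. It occurred within 100 bp of the summit in 38.5% (37.9 to 39.2) of them, against 26.3% of shared intervals, 20.5% of intervals in neither list, 12.8% of those in WT but not Cho replicate 1, and 23.1% of all deletion intervals. In pairs equal in fold enrichment it was found in 41.8% of WT-absent and 21.3% of shared intervals. In 22456 pairs with intervals in neither list the shares were 38.3% and 19.1%. Summits over 1 kb from a start gave 46.6% and 27.0% in the first pairing and 43.4% and 19.9% in the other. On pairs equal in summit pileup the difference from shared intervals was smaller, 36.5% against 28.7%.

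In WT-absent intervals the AP-1 share was higher at higher fold enrichment, going from 25.3% (24.0 to 26.7) below 4 to 46.7% (45.4 to 48.0) at 6 to 8 and 64.5% (58.7 to 69.99) at 12 or more, the last class holding 290 intervals. Shared intervals went from 10.8% to 29.5% over the same classes, and intervals in WT but not Cho replicate 1 from 9.85% to 14.9%. In the class of 6 to 8 every kind of interval was well filled. The shares there were 46.7% in WT-absent intervals, 22.7% in shared ones and 23.2% in those in neither list. Those in WT but not Cho replicate 1 had 12.5%. The motif was densest around the summit in WT-absent intervals and in their shared partners. In the central 20 bp there were 105 motifs per 1000 WT-absent intervals and 43.0 per 1000 of their shared partners. In the bin 20 bp before the summit, by plus strand position, there were 81.2 and 37.7, and in the bin 120 bp before it 8.53 and 9.02.

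**Figure D2:**
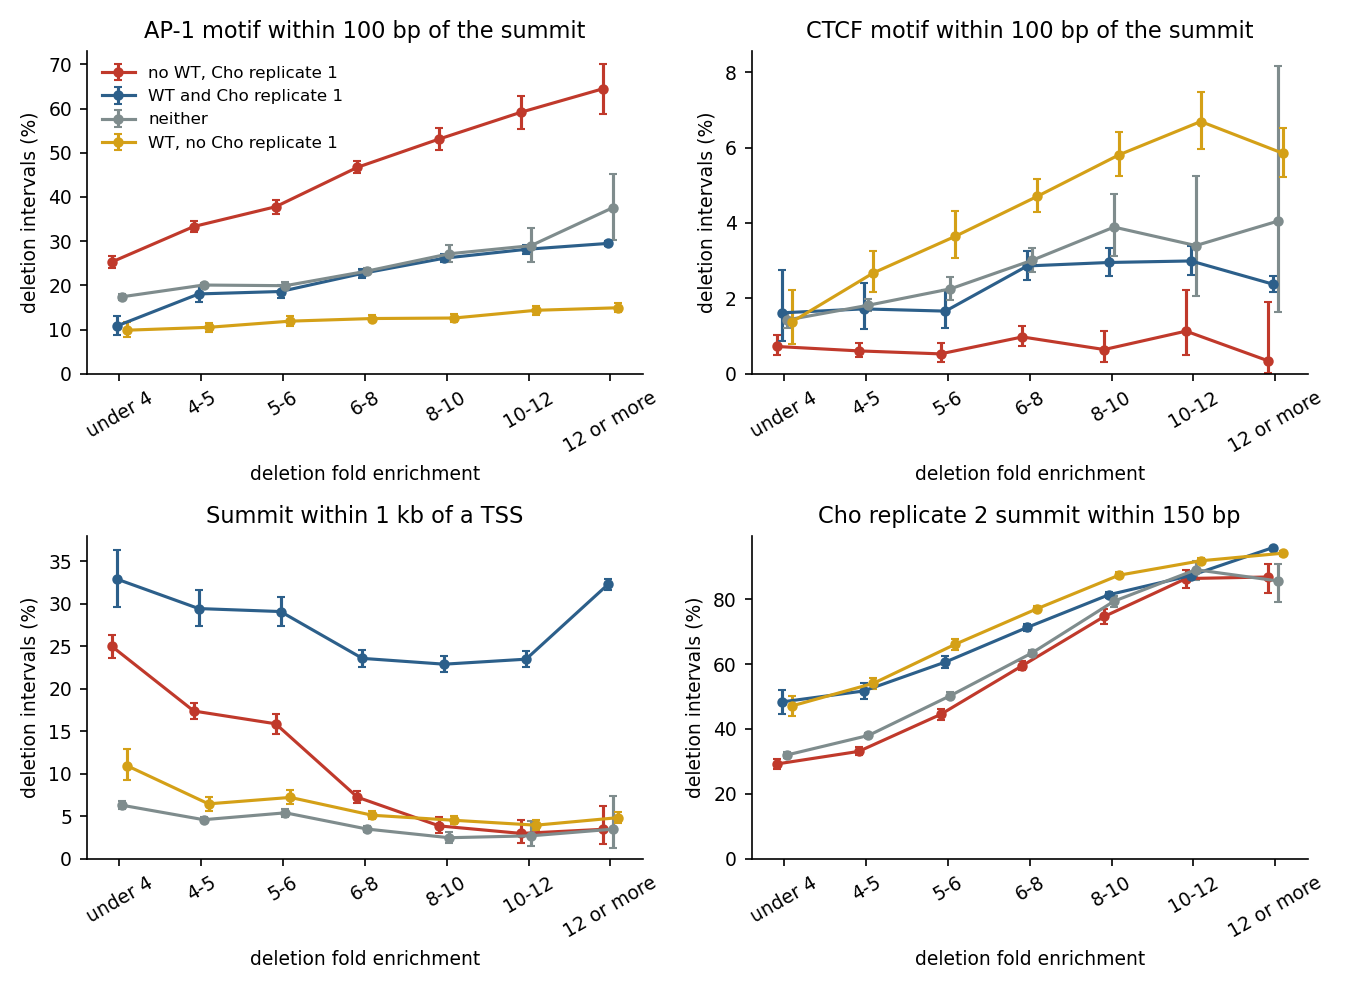
Shares of autosomal deletion intervals (%, y axes) with an AP-1 motif, with a CTCF motif, with a summit within 1 kb of a TSS and with a Cho replicate 2 summit, by deletion fold enrichment (x axes), for the 4 kinds of interval. Bars are 95% exact binomial intervals; the AP-1 share of WT-absent intervals (red) is the highest in every class, from 25.3% to 64.5%, and their CTCF share stays at or below 1.13%.

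**Figure D3:**
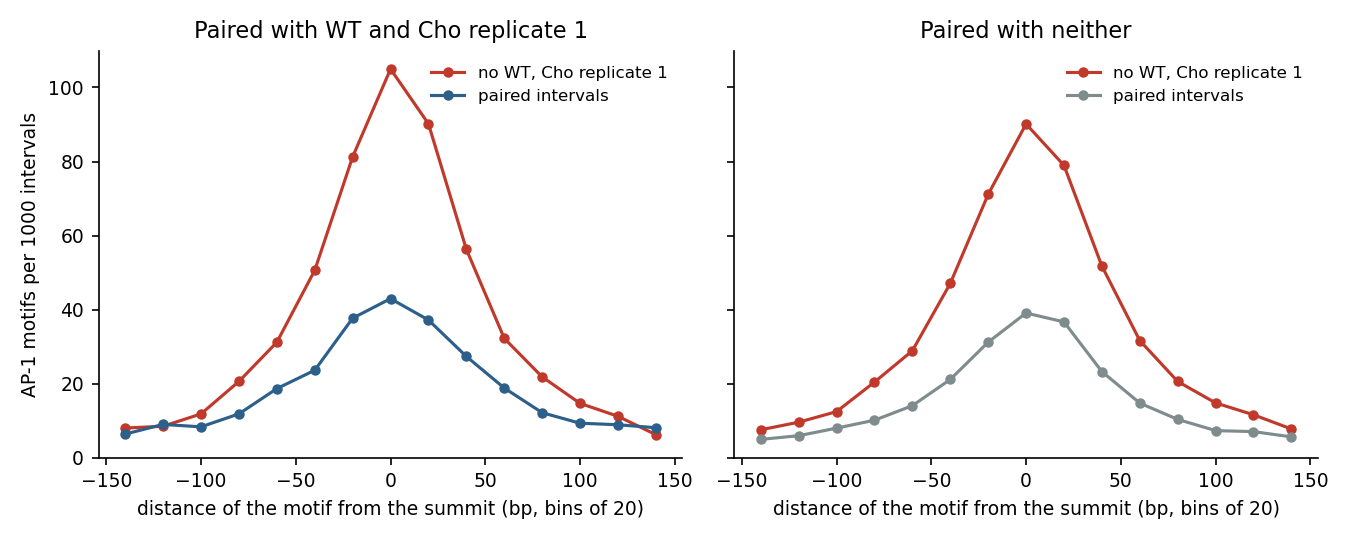
AP-1 motifs per 1000 intervals (y axis) in bins of 20 bp by distance from the deletion summit (x axis) in WT-absent intervals (red) and in the intervals paired with them on fold enrichment. In the central bin WT-absent intervals hold 105 against 43.0 in shared partners (left) and 90.1 against 39.1 in partners from neither list (right).

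The CTCF core motif, searched on both strands, was less frequent in WT-absent intervals. It occurred in 0.719% (0.614 to 0.838) of WT-absent intervals, against 2.57% of shared intervals, 2.12% of those in neither list and 4.90% of those in WT but not Cho replicate 1. In pairs equal in fold enrichment the shares were 0.764% and 2.36%, and in pairs equal in pileup 0.837% and 3.49%. WT-absent intervals stayed between 0.345% and 1.13% in every class of fold enrichment, below shared intervals in each. The order against neither list turned when Cho replicate 2 took the place of Cho replicate 1 in the choice, to 2.83% in intervals with a Cho replicate 2 summit and 0.868% in those without.

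None of the other 7 motifs differed from shared partners of equal fold enrichment by as many percentage points as AP-1, though some differed by more than CTCF. RUNX (TGTGGTT) was found in 9.42% of WT-absent intervals and 7.38% of those partners and TEAD (ACATTCC) in 8.07% and 6.17%. The E-box CAGCTG was in 13.97% of WT-absent intervals and 16.4% of their partners in neither list. Before pairing, RUNX was found in 9.05% of WT-absent and 8.60% of all deletion intervals, SOX (ACAAAG) in 13.6% and 12.6%, TEAD in 7.73% and 6.81%, the Pitx motif TAATCC in 5.70% and 5.24%, and the E-box in 14.0% and 15.7%. The full NFI palindrome was in 0.307% and 0.335% and the CRE TGACGTCA in 0.482% and 0.611%. No listed motif contains the AP-1 motif, and a match describes letters, not binding.

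A Cho replicate 2 list was not used by the choice of intervals. The methods and labels name mm9 for every list, but the positions of this one were those of GRCm38: of 18634 start sites found in both builds, 66.9% had a Cho replicate 2 summit within 1 kb at their GRCm38 position and 17.7% at their NCBIM37 position, against 10.3% and 58.4% for Cho replicate 1. It was therefore read as GRCm38 and compared by distance from start sites found in both builds, for 20355 of the WT-absent intervals. A Cho replicate 2 summit lay within 150 bp of the same distance in 46.0% (45.3 to 46.7) of them, in 83.9% of shared intervals, in 45.5% of intervals in neither list and in 78.9% of those in WT but not Cho replicate 1. In pairs equal in fold enrichment 56.3% of WT-absent and 67.5% of shared intervals had one, and in the pairs with neither list 45.5% and 52.9%. The order against neither list depended on the setting before pairing: with a tolerance of 500 bp 63.7% of WT-absent intervals and 56.3% of those in neither list had one, and over 1 kb from a start 49.5% and 45.8%.

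The motifs also divided by Cho library. Among intervals with no WT interval, AP-1 was found in 42.3% of those in both Cho lists, in 34.7% of those in Cho replicate 1 alone, in 17.8% of those in Cho replicate 2 alone and in 22.5% of those in none. CTCF was found in 1.12%, 0.355%, 3.48% and 1.06% of the same kinds. When Cho replicate 2 took the place of Cho replicate 1 in the choice, 34186 intervals were absent from WT and present in Cho, and 24.5% of them held AP-1, against 25.8% of those absent from both lists. The AP-1 share thus went with the Cho replicate 1 list, and its excess over intervals in neither list was not seen without it. That list had fewer open cartilage gene starts than Cho replicate 2, and the 2 lists also differed in other ways. Replicate 1 had 74450 autosomal intervals and replicate 2 had 145018. Their median widths were 404 and 236 bp and their background pileups 1.37 and 1.96. The part that each difference plays was not tested.

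Distance to the nearest WT interval split the WT-absent intervals. The median was 3630 bp, but 6034 (26.5%) lay within 500 bp of a WT interval. Of these near ones, 42.7% had a summit within 1 kb of a start, 16.1% held AP-1 and 26.2% had a Cho replicate 2 summit. In 84.1% of them the Cho replicate 1 interval that they overlapped also overlapped a WT interval elsewhere along its length. Of the 16766 farther ones, 4.22% lay within 1 kb of a start, 46.6% held AP-1, 53.3% had a Cho replicate 2 summit, and in 2.18% the Cho replicate 1 interval reached a WT interval. Near ones were thus richest in promoters and the farther ones in AP-1.

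**Figure D4:**
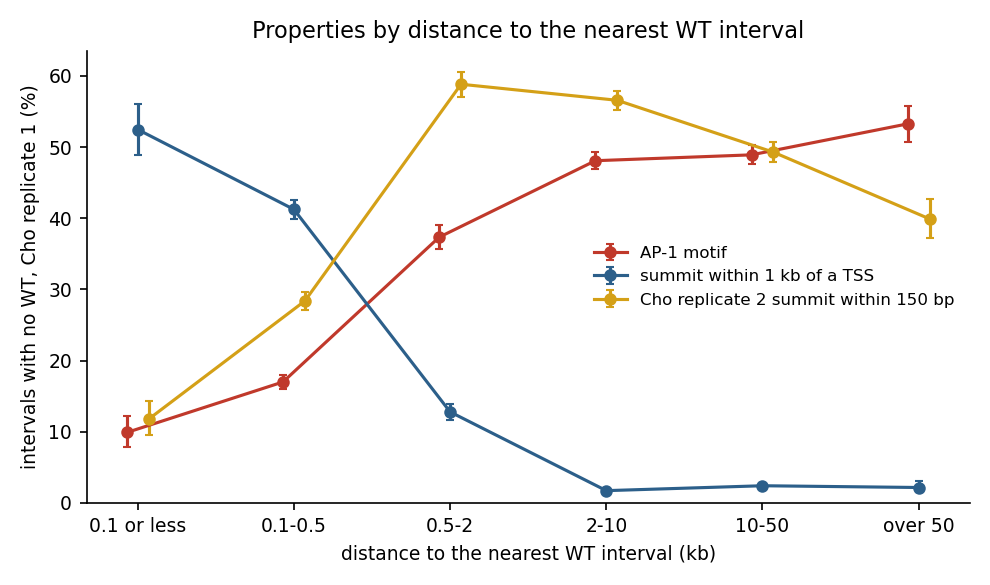
Shares of WT-absent intervals (%, y axis) with an AP-1 motif, with a summit within 1 kb of a TSS and with a Cho replicate 2 summit, by distance to the nearest WT interval in kb (x axis). Bars are 95% exact binomial intervals; the promoter share drops from 52.5% within 0.1 kb to 1.71% at 2 to 10 kb, and the AP-1 share goes from 9.89% to 48.1%.

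At the edge of the choice, 29 WT-absent intervals lay within 10 bp of a WT interval, with a median fold enrichment of 4.29, and 38 shared intervals overlapped WT by 10 bp or less, with a median of 4.92. Similarly, 210 WT-absent intervals overlapped Cho replicate 1 by 10 bp or less, with a median of 4.37, and 226 intervals in neither list lay within 10 bp of it, with a median of 4.30. Both sides of each edge were alike in strength and in promoter share, 28.6% and 27.9% at the Cho replicate 1 edge and 41.4% and 44.7% at the WT edge.

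The 10 WT-absent intervals with the highest fold enrichment reached 16.6 to 17.8, with pileups of 26 to 29 fragments, which scaled to 14.97 to 16.7 fragments at the WT background. None lay within 1 kb of a start, 5 lay in introns and 5 between genes, and 6 held AP-1. In Cho replicate 1 they had 4.65 to 25.3, and 8 of the 9 that could be compared had a Cho replicate 2 summit, at 5.75 to 26.2. The nearest WT interval was 3803 to 60699 bp away. The interval 19.0 kb upstream of Vash2 had a fold enrichment of 17.2 in the deletion, 10.98 in Cho replicate 1 and 15.2 in Cho replicate 2. The interval 161 kb from the start of Nr2f2, which encodes a nuclear receptor, had 17.2, 23.2 and 10.1. The interval 514 kb upstream of Rgmb had 17.2, 23.2 and 13.5. In the intron of Ino80, a chromatin remodeller gene, the interval without an AP-1 motif had 17.8, 4.65 and 26.2. The WT list had no interval at these places, and the nearest gene is named by position only.

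At the low end, the 5 WT-absent intervals with the lowest fold enrichment had 1.73 to 1.99 with pileups of 24 to 51 fragments, which is high pileup over high local background. The lowest lay in an exon of Neat1, a nuclear long noncoding RNA, 187 bp from a WT interval. None of the 5 held AP-1, and 4 lay within 500 bp of a WT interval.

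WT-absent intervals were spread over the chromosomes, from 11.1% of the deletion intervals on chromosome 11 to 15.8% on chromosome 3. Of 21281 protein-coding genes, 9122 (42.9%) had at least 1 whose nearest start was theirs, and 4127 of these had exactly 1.  Zeb2, a zinc finger repressor of epithelial genes, had 27 among its 100 deletion intervals. Efna5, an ephrin ligand, had 26 of 115, Pde4d, a cAMP phosphodiesterase, 24 (23.8%), and Bmper, a secreted BMP-binding protein, 22 of 81. Tns3, a focal adhesion gene, had 22 of 98, Trps1, a zinc finger factor of the growth plate, 21 of 88, and Cited2, a transcriptional coregulator, 20 of 91. Dst, which encodes a cytoskeletal linker, had 20 of 55, and Kirrel3, Nfib and Pcdh9 had 19 each. These shares, 22.0% to 37.3% of a gene's deletion intervals, stood above the 13.8% over all intervals. The genes were picked by the count, which favours high shares.

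**Figure D5:**
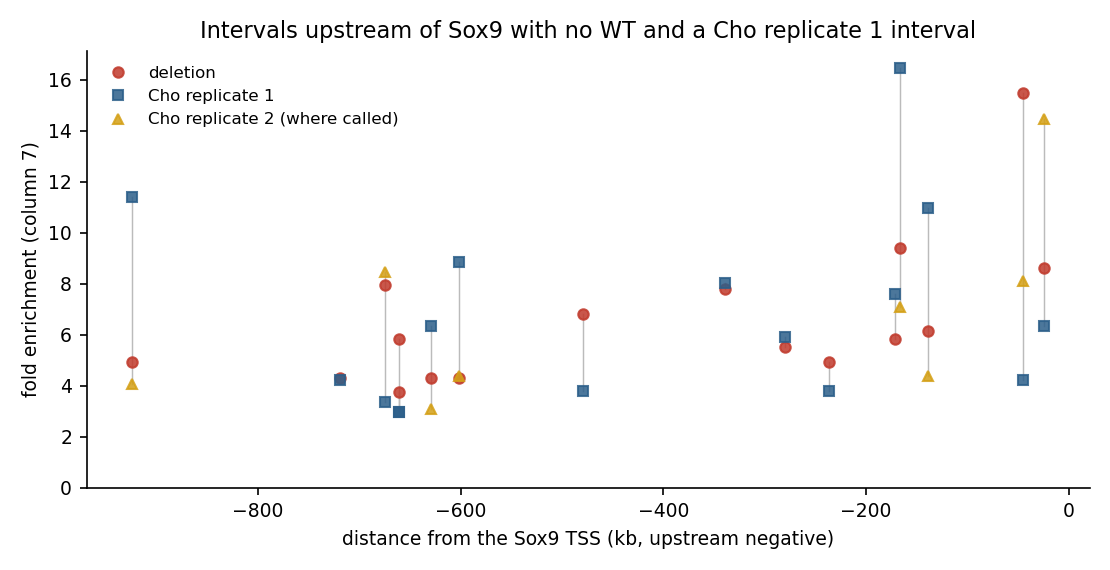
Fold enrichment (y axis) in the deletion, in Cho replicate 1 and, where a summit was called, in Cho replicate 2 of the 16 WT-absent intervals within 1.5 Mb upstream of Sox9, by distance from the Sox9 TSS in kb (x axis). Grey lines join values of 1 interval. The highest deletion value is 15.5, at 45.0 kb upstream, and 8 of 16 have a Cho replicate 2 summit at the same distance from Sox9.

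Upstream of Sox9, which encodes the transcription factor that directs cartilage formation, 110 deletion intervals lay within 1.5 Mb. Of these, 16 (14.5%) were WT-absent, 16 were shared, 45 were in neither list and 33 were in WT but not Cho replicate 1. The share is close to the 13.8% over all autosomal deletion intervals. The 16 had a median fold enrichment of 5.85 and ranged from 3.74 to 15.5, and in Cho replicate 1 they ranged from 2.96 to 16.5. AP-1 was found in 9 of them (56.2%) and in 10 of the 16 shared ones (62.5%). Here the share was thus no higher than in shared intervals. The motif was found in 24.4% of those in neither list and in 15.2% of those in WT but not Cho replicate 1. Of the 16 WT-absent ones, 2 lay within 500 bp of a WT interval, and 4 scaled to fewer fragments than the smallest pileup called in WT. A Cho replicate 2 summit stood at the same distance from Sox9 for 8. Measured from the flanking start sites found in both builds, as in the shares above, 9 had one. Shown here are the summits with 50 bases on either side of the strongest, which has no AP-1 motif, of one with a single AP-1 motif, and of one with a pair, on the plus strand of NCBIM37 with AP-1 in capitals.
45.0 kb upstream of Sox9 (chr11:112598536-112598636): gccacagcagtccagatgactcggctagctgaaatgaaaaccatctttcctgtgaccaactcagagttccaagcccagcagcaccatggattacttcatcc
139 kb upstream of Sox9 (chr11:112504657-112504757): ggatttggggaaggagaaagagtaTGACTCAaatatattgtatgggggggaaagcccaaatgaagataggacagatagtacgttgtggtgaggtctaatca
339 kb upstream of Sox9 (chr11:112304091-112304191): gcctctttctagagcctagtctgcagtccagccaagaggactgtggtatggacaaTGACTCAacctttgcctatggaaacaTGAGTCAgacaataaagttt

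The strongest, at chr11:112598521-112598689 in an intron of BC006965, lay 45.0 kb upstream of Sox9. It had a fold enrichment of 15.5 in the deletion, 4.22 in Cho replicate 1 and 8.10 in Cho replicate 2. At the WT background the 25 fragments scaled to 14.4, and the nearest WT interval was 2482 bp away. The interval 24.1 kb upstream had 8.61, 6.33 and 14.4 in the same order. The interval 166 kb upstream had 9.39, 16.5 and 7.09, and the one 139 kb upstream had 6.15, 10.98 and 4.40. By fold enrichment, a ratio within each list, the order of the 3 libraries thus differed from interval to interval. That order also depended on the measure. As summit pileup over background pileup, the interval 166 kb upstream had 28.7 in the deletion and 27.8 in Cho replicate 1. The one 139 kb upstream kept its order, with 14.4 and 18.3. Farther out, the interval 675 kb upstream had 7.96, 3.38 and 8.46 but lay 50 bp from a WT interval. The one 339 kb upstream had 7.81 and 8.02 with no Cho replicate 2 summit.

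In the cartilage list, 11 of 22 genes had a WT-absent interval nearest to their start, 61 intervals in all or 12.1% of the list's deletion intervals, against 13.8% over all genes. Trps1 had 21 of 88 and Sox9 10 of 77. Col11a1, a fibrillar collagen gene, had 9 of 49 and Sox5, a partner of Sox9, 9 of 73. Col2a1, the main cartilage collagen gene, had 2 of 15. Acan had none of 16, and Col9a1, which encodes a fibril-associated collagen, none of 26. The strongest after the one at Sox9 lay 121 kb upstream of Sox5, with 12.3 in the deletion, 15.2 in Cho replicate 1 and 15.9 in Cho replicate 2, and held AP-1. The next lay 16.3 kb from the start of Comp, a cartilage matrix gene, in an intron of Crtc1, with 11.7, 5.07 and 7.97.

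In the fibroblast and bone list 14 of 17 genes had at least 1, with 51 intervals or 14.0% of those of the list. Twist1, a mesenchymal transcription factor, had 9 of 25 and Col1a2, a type I collagen gene, 8 of 30. The strongest lay 142 kb upstream of Col1a2, with 16.0 in the deletion and 4.65 in Cho replicate 1, and had no Cho replicate 2 summit. In the skeletal muscle list 5 of 12 genes had 20 intervals, 13.2%, with 8 of 32 at Pax3 and 8 of 67 at Mef2c. In the blood and endothelium list 9 of 12 had 31, 13.1%. Runx1, a factor of blood stem cells, had 8 of 76 and Cdh5, an endothelial cadherin, 7 of 58. In the AP-1 and stress list 10 of 15 had 24, 14.2%. Ptgs2, an inducible prostaglandin synthase, had 6 of 17, Jun 5 of 32 and Fos 3 of 26. The strongest of that list lay 37.5 kb upstream of Fos, with 12.1 in the deletion, 6.76 in Cho replicate 1 and 18.5 in Cho replicate 2. By gene, 41.7% to 82.4% of a list had at least 1, against 42.9% of all protein-coding genes. By interval, all 5 lists had shares between 12.1% and 14.2%, near the 13.8% over all genes.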

How the data were processed

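Peak lists of 4 ATAC-Seq libraries of mouse rib chondrocytes were used, grouped by their sample labels (Cho, 2 replicates, and WT and the deletion, 1 each). According to the study's methods and the submitters' processing notes, the authors trimmed reads with fastp, aligned them with Bowtie2 2.4.4, removed duplicates with Picard and called peaks with MACS2 2.2.4 at a q-value of 0.05. Each list was read as called on 1 library. The deposited fold enrichment (column 7) is a ratio within its own list. The deposited columns 8 and 9 are −log10 p-values and −log10 q-values, and the deposited score in column 5 was not used. Read totals were not given in the sources used here, so depth was judged from the background pileup. This pileup also grows with the width given to each tag. Tag depth therefore divides it by the smallest interval width, 200 bp in Cho replicate 1 and 94 bp in Cho replicate 2.

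Members, gene lists and motifs were chosen with earlier results of these data known. Cho replicate 1 entries sharing an interval were reduced to the strongest, and chromosomes X and Y were left out. Summit pileups were solved from columns 7 and 8 under a Poisson background (99.998% of deletion intervals). Starts were 5′ ends of protein-coding genes of GENCODE vM1 on NCBIM37, and place was read from all its genes. Cho replicate 2, read as GRCm38, was compared only by distance from 18634 RefSeq start sites whose sequence was found in both builds, between start sites equally far apart. Pairs were drawn 1 to 1, without reuse, within 0.05 of column 7. The pairing had been planned without this limit, which left pairs up to several units apart. Members named were the 10 highest and 5 lowest in column 7, those within 1.5 Mb upstream of Sox9 and the highest 3 per gene list; genes named were the 10 with the most members, with ties. Intervals of shares are 95% Clopper-Pearson. The solver, the pairing and the motif search were tested on simulated data. The scripts ran on Python 3.11.15 with scipy 1.17.1, pandas 2.3.3 and numpy 2.4.6.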

Additional observations from a re-analysis of the deposited data

How the results depend on the processing

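No paired analysis was possible because there was 1 library of WT and 1 of the deletion. With 1 library per genotype, a difference between lists cannot be told apart from a difference of animals, cultures or libraries, and absence from WT, the shallower list, cannot be told apart from too few reads there. For Cho replicate 2, on another build, 90.0% of deletion intervals had an answer.

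The number of WT-absent intervals stayed within 1.5 times of 22800 except with q below 1e-5 in all lists (14775) and with equal numbers of the strongest peaks of WT and the deletion (7908). With Cho replicate 2 in place of replicate 1 it was 34186. The share of deletion intervals without WT that had Cho replicate 1, 27.3%, was 29.8% at 50% overlap, 23.9% with no WT within 500 bp, 25.4% with the deletion summit inside the Cho interval, 21.8% with a Cho summit within 150 bp, 36.7% with equal numbers and 45.7% with Cho replicate 2. The median distance to a start was 32.1, 46.5, 35.2, 40.4 and 49.3 kb under the first 5 of these and 31.2 kb with q below 1e-5.

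Differences from partners follow in percentage points. The promoter share minus that of shared intervals, -13.1, was -11.3 at 50% overlap, -20.7 with no WT within 500 bp, -17.4 with q below 1e-5, -16.7 with equal numbers, -16.4 within 2 kb, -16.5 from transcript starts and -6.32 with Cho replicate 2. Paired on pileup it turned to 6.36, with the median distance differing by -14.3 kb and the GC content by 0.498. The cause was not tested.

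The AP-1 share minus that of shared intervals, 20.5, remained positive: 16.4 at 50% overlap, 26.1 with no WT within 500 bp, 23.6 with q below 1e-5, 25.5 with equal numbers, 11.8 with Cho replicate 2, 19.1 with weighting by bins, 12.2 unmatched, 18.0 with the motif within 50 bp, 7.77 paired on pileup, 22.8 with a Cho summit within 150 bp, 19.1 over 1 kb from a start and 23.0 when also without WT within 500 bp. Minus that of intervals in neither list, 19.3, it was 25.03 with no WT within 500 bp, 21.1 with the summit inside the Cho interval, 20.5 with q below 1e-5, 25.01 with equal numbers, 17.6 with weighting, 18.1 unmatched, 15.7 with the motif within 50 bp, 25.2 with a Cho summit within 150 bp, 23.1 over 1 kb from a start, 25.4 when also without WT within 500 bp, and turned to -4.13 with Cho replicate 2. The cause was not tested.

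The Cho replicate 2 share minus that of shared intervals, -11.2, was -7.35 at 50% overlap, -5.38 with no WT within 500 bp, -6.19 with q below 1e-5, -7.84 with equal numbers, -15.0 with weighting, -37.9 unmatched, -21.6 paired on pileup and -14.1 over 1 kb from a start. Minus that of neither list, -7.41, it was -5.69, -5.36, -11.1 and -4.66 under the first 4 of these, -6.18 with the summit inside the Cho interval, -5.42 with weighting, -2.09 at 500 bp tolerance, -1.23 with a Cho summit within 150 bp, -5.54 over 1 kb from a start, -5.48 when also without WT within 500 bp, and turned to 0.447 unmatched.

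Against neither list, other small differences also turned. With Cho replicate 2 the promoter share turned from 7.34 to -5.44, CTCF from -1.54 to 1.96, introns from -1.36 to 2.99, the GC content from -1.49 to 0.995 and the median distance from 3.04 to -0.168 kb. With weighting introns gave 0.413 and the distance -3.29 kb, unmatched 0.945 and -5.11 kb, and with a Cho summit within 150 bp the promoter share gave -1.59. The share of intervals scaled below the smallest WT pileup was 13.0% by background and 22.0% by tag depth. With starts within 100 kb only, the fibroblast and bone list had 13 genes in place of 14, and the other 4 lists were as given. The settings of a pairing on pileup, transcript starts, a Cho summit within 150 bp and summits over 1 kb from a start were chosen after seeing the data.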

Other observations

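Deletion intervals that did have a WT interval were also divided by Cho library. AP-1 was found in 27.8% of 37008 in both Cho lists, in 16.8% of 7110 in Cho replicate 1 alone, in 12.2% of 23714 in Cho replicate 2 alone and in 14.8% of 6341 in no Cho list. CTCF was found in 2.86%, 1.13%, 6.15% and 1.01% of the same kinds. Summits within 1 kb of a start made up 25.6%, 43.4%, 4.95% and 7.03%. CTCF was most frequent where Cho replicate 2 had a summit and Cho replicate 1 had none, with and without a WT interval.

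The start sites of fibroblast and bone genes had a summit within 1 kb in 10 of 17 genes in Cho replicate 1, 15 in WT, 16 in the deletion and 17 in Cho replicate 2. Those of blood and endothelial genes had one in 6, 5, 8 and 8 of 12.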
